A study of Mus musculus with 6 samples.

Results

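Klf2 and 4 receptors that guide lymphocytes through lymphoid tissue were followed in spleen: S1pr1, Ccr7, Itgb7 and Cxcr4. The 5 genes were taken by their GENCODE M21 symbol from a table of 24906 genes, and each matched 1 gene identifier. Klf2, S1pr1 and Ccr7 had been picked because they were lower in D3TA, so the differences between the groups given for the 5 members are descriptions and carry no test. RNA came from splenocytes of C57BL/6J mice aged 12 to 16 months, 3 D3TA and 3 wild-type (WT), 1 library per mouse. In D3TA mice, CRISPR/Cas9 editing of Ccnd3, the cyclin D3 gene, changed threonine 283 to alanine (T283A). The line was kept heterozygous, and the series record describes severe symptoms of myeloproliferative neoplasm at this age. WT mice were matched for age and received, as far as the labels say, no treatment, and neither did the D3TA mice.

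KLF2 is a zinc-finger transcription factor of quiescent lymphocytes and of endothelium. FOXO1 and the MEK5-ERK5-MEF2 pathway act upstream of it, and in T cells it drives transcription of S1pr1. S1PR1 lets lymphocytes leave lymphoid organs toward the sphingosine 1-phosphate (S1P) of blood, CCR7 draws naive T cells, activated B cells and dendritic cells toward CCL19 and CCL21, integrin beta 7 pairs with alpha 4 to bind MAdCAM-1 in gut vessels, and CXCR4 holds cells near CXCL12 in marrow and red pulp.

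Values are normalized read counts, that is, reads per gene divided by a size factor per library. The libraries held 14944622 to 19456838 reads in genes, so that 3 reads equal 2.59 to 3.36 normalized counts, far below the values of the 5 members. Differences subtract the WT mean from the D3TA mean of log2(normalized count + 1) and carry limma's moderated standard error (SE). Some library features did not follow genotype. Hemoglobin genes took 6.39% to 6.75% of the signal in D3TA-1, D3TA-2 and WT-3 and 1.40% to 1.91% in the other 3, Y-linked genes were expressed in D3TA-3 and WT-1, and the number of genes listed at 0 was 8449 in WT-2 and 3193 to 5170 in the rest. Of 15564 genes tested with limma, 0 passed a Benjamini-Hochberg adjusted p of 0.05 (0% called), and 1542 (9.91%) had an unadjusted p under 0.05.

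Klf2 (ENSMUSG00000055148, chromosome 8, 72319033 to 72321656, plus strand, GRCm38) was about 2-fold lower in D3TA. Its normalized counts were 2093, 3042 and 2287 in D3TA-1, D3TA-2 and D3TA-3 and 4621, 5741 and 5915 in WT-1, WT-2 and WT-3. The groups did not overlap, and the lowest WT library held 1.52 times the count of the highest D3TA library. The means were 2474 ± 502 in D3TA against 5426 ± 702 in WT (n = 3 each, SD), a log2 difference of -1.14 ± 0.28 (SE) or 2.21-fold. Among the libraries with the larger hemoglobin share the D3TA values of 2093 and 3042 stood against 5915, and among those with the smaller share 2287 stood against 4621 and 5741.

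S1pr1 (ENSMUSG00000045092, chromosome 3, 115710433 to 115715072, minus strand), the egress receptor, stood at 662, 1525 and 1582 in D3TA-1, D3TA-2 and D3TA-3, against 2986, 3084 and 2501 in WT-1, WT-2 and WT-3. D3TA-1 was the lowest by far, and all 3 D3TA libraries lay below all 3 WT libraries. The log2 difference was -1.28 ± 0.36 (SE), 2.43-fold.

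Ccr7 (ENSMUSG00000037944, chromosome 11, 99144196 to 99155077, minus strand) showed the widest gap of the 5 genes. Normalized counts were 277, 936 and 1178 in D3TA-1, D3TA-2 and D3TA-3 and 2166, 2150 and 2283 in WT-1, WT-2 and WT-3. WT libraries lay within a coefficient of variation of 3.29%, against 58.5% in D3TA, and the groups did not overlap. The log2 difference was -1.70 ± 0.47 (SE), 3.26-fold. It rested in part on D3TA-1: without that library it was -1.07.

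Itgb7 (ENSMUSG00000001281, chromosome 15, 102215995 to 102231944, minus strand) was at 1241, 2099 and 2004 in D3TA-1, D3TA-2 and D3TA-3, against 4090, 4176 and 2183 in WT-1, WT-2 and WT-3. The groups were separated by little, since WT-3 held 1.04 times the count of D3TA-2. The log2 difference was -0.95 ± 0.35 (SE), 1.93-fold. With D3TA-1 and WT-2 both left out it was -0.54. WT-3 and D3TA-2 both had the larger hemoglobin share, and with a term for that share the difference was -0.74.

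Cxcr4 (ENSMUSG00000045382, chromosome 1, 128588199 to 128592293, minus strand) did not share the pattern of the other 4 genes. It was at 2721, 3157 and 2699 in D3TA-1, D3TA-2 and D3TA-3, against 2279, 3360 and 3108 in WT-1, WT-2 and WT-3, and the groups overlapped fully. The log2 difference was -0.01 ± 0.28 (SE). Its sign changed with the scaling, at -0.10 under upper quartile and 0.07 under library total.

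**Figure D1:**
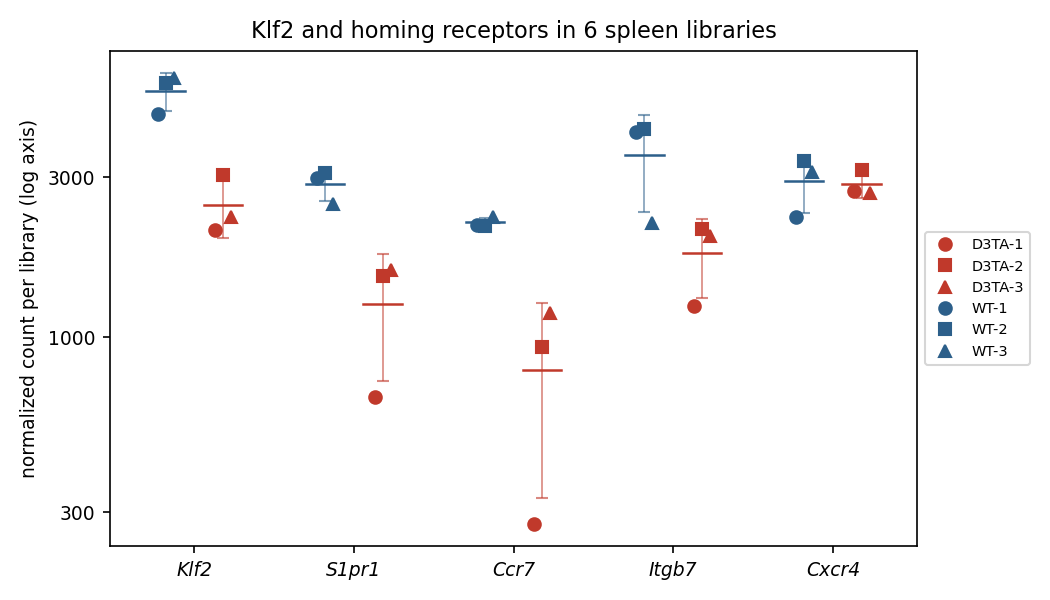
Normalized count of each gene in each library on a log axis, with points for libraries (red D3TA, blue WT), horizontal bars for group means and whiskers for 1 SD (n = 3). The D3TA points of Klf2, S1pr1, Ccr7 and Itgb7 lie below the WT points, D3TA-1 is the lowest library for these 4 genes, and the groups overlap for Cxcr4.

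In all, 4 of the 5 members had each D3TA library below each WT library, an arrangement that 6.84% of the 15564 tested genes showed, while 8.18% showed the opposite arrangement. Because the members were chosen from this contrast, nothing is read from that share. The median of the 5 log2 differences was -1.14, and that of all tested genes was 0.06, with 45.5% of all tested genes below 0.

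Per kilobase of annotated exon, WT spleen held 2938 ± 380 normalized counts of Klf2, 1613 ± 313 of Cxcr4, 1257 ± 407 of Itgb7, 1112 ± 36.6 of Ccr7 and 938 ± 102 of S1pr1 (n = 3 each, SD). Klf2 lay above Cxcr4 in every WT library and Ccr7 above S1pr1, whereas the libraries of Cxcr4 and Itgb7, and of Itgb7 and Ccr7, overlapped. In D3TA the order on the same per-kilobase scale was Cxcr4 at 1581 ± 143, Klf2 at 1340 ± 272, Itgb7 at 643 ± 170, S1pr1 at 412 ± 169 and Ccr7 at 403 ± 236 (n = 3 each, SD). Cxcr4 lay above Klf2, Klf2 above Itgb7 and Itgb7 above S1pr1 in each D3TA library. The ranges over the D3TA libraries overlapped for Cxcr4 and Klf2 and for Itgb7 and S1pr1, and the order of S1pr1 and Ccr7 differed between libraries.

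Sequence upstream of the RefSeq starts (GRCm38.p6) is shown for Klf2, Itgb7 and Cxcr4, the 3 members that matched there. S1pr1 and Ccr7 had no match and are not shown. Patterns of KLF, FOXO and MEF2 factors were marked because FOXO1 and MEF2 act upstream of Klf2 and KLF2 drives S1pr1 in T cells. For Itgb7 and Cxcr4 no such link is given here. Each stretch begins 250 bases before the start, runs 5′ to 3′ on the gene's strand and leaves out bases that GENCODE annotates as exon. Capitals mark matches, on either strand, to CACCC or CCNCNCCC (KLF), GTAAACA (FOXO) or CTA and TAG with 4 bases between them (MEF2), and the KLF patterns can overlap each other. The stretches are chr8:72318812-72319032 on the plus strand, chr15:102231945-102232185 on the minus strand and chr1:128592300-128592549 on the minus strand.
Klf2: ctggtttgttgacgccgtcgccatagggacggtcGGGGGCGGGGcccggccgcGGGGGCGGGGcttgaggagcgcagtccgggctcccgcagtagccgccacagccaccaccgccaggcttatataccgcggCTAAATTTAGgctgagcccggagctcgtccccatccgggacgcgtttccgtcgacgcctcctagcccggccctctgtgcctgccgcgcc
Itgb7: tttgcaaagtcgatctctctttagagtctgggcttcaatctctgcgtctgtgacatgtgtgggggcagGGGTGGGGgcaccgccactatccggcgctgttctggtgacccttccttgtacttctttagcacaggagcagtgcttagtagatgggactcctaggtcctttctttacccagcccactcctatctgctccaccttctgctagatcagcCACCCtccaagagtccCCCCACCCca
Cxcr4: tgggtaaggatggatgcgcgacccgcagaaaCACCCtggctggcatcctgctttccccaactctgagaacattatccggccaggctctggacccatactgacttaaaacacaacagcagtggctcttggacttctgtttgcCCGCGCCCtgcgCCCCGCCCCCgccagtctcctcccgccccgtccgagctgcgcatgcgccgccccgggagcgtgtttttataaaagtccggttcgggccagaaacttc

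The Klf2 stretch held CTAAATTTAG, a match to the MEF2 pattern, from 118 to 109 bases before the start, and 3.2% of 32851 promoter windows of 250 bases held such a match. It also held 4 overlapping matches to CCNCNCCC in 2 runs, all on the opposite strand, a pattern found in 45.9% of windows. Itgb7 had 3 matches to CACCC and 2 to CCNCNCCC, and Cxcr4 had 1 and 3. CACCC occurred in 52% of all windows. GTAAACA, present in 3.17% of windows, matched none of the 3 stretches.

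The regulators upstream of Klf2 were split in direction. The list was not sorted by whether a gene raises or lowers Klf2, so its median is no readout of the pathway. Of 13 tested genes 8 lay below 0 and 5 above, with a median of -0.12, and limma called 0 of them. Foxo1, which drives Klf2, Il7r and Ccr7 transcription in lymphocytes, stood at 289, 640 and 827 in D3TA-1, D3TA-2 and D3TA-3, against 1625, 1436 and 351 in WT-1, WT-2 and WT-3. WT-3 lay among the D3TA libraries, and the difference of -0.80 ± 0.58 (SE) did not pass (limma adjusted p = 0.690). Without WT-3 the Foxo1 difference was -1.51, and without D3TA-1 it was -0.36. Mef2c, expressed in B and myeloid cells, averaged 1357 ± 606 in D3TA against 2134 ± 610 in WT (n = 3 each, SD), also without passing (limma adjusted p = 0.598). Mapk7, which encodes ERK5, averaged 327 ± 57.8 and 320 ± 127. Map2k5, which encodes MEK5, was at 235, 289 and 300 in D3TA-1, D3TA-2 and D3TA-3, against 357, 316 and 371 in WT-1, WT-2 and WT-3. Wwp1 was at 457, 342 and 524 in D3TA against 340, 317 and 342 in WT in the same order. Their groups did not overlap, with 1 of 13 genes lower and 1 higher. Over all tested genes the shares were 6.84% and 8.18%.

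Other members of the KLF family lay evenly around 0. Of 14 tested, 7 lay above and 7 below, the median was 0.03 and limma called 0. Klf3, itself a transcriptional target of other KLFs, averaged 1642 ± 609 in D3TA against 1220 ± 199 in WT. Klf6 averaged 1656 ± 175 and 1997 ± 467, and Klf13 averaged 1440 ± 397 and 1674 ± 692 (n = 3 each, SD). Klf15 was the one family member whose groups did not overlap, at 82.5, 50.5 and 21.6 in D3TA-1, D3TA-2 and D3TA-3, against 84.1, 161 and 163 in WT-1, WT-2 and WT-3, with D3TA-1 and WT-1 nearly equal (limma adjusted p = 0.424). Of all tested genes 6.84% had each D3TA library below each WT library, so 1 of 14 is near the background.

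Other genes reported as targets of KLF2 or FOXO1 were split in direction. Of 9 tested, 5 lay below 0 and 4 above, the median was -0.21 and limma called 0. Il7r, the interleukin-7 receptor of naive T cells, averaged 781 ± 288 in D3TA against 881 ± 257 in WT, and Cd69, whose product pulls S1PR1 from the cell surface, averaged 374 ± 180 and 543 ± 186 (n = 3 each, SD).

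S1P receptors differed in direction while 0 of 15 tested genes of S1P signalling were called (median -0.16). S1pr4, found on most blood leukocytes, was at 646, 1001 and 741 in D3TA-1, D3TA-2 and D3TA-3, against 1477, 1391 and 1819 in WT-1, WT-2 and WT-3, a log2 difference of -0.99 ± 0.29 (SE; limma adjusted p = 0.304). S1pr5, the egress receptor of NK cells and patrolling monocytes, was at 105, 137 and 137 in D3TA against 36.3, 64.9 and 62.8 in WT in the same order, a difference of 1.23 ± 0.46 (SE; limma adjusted p = 0.419). The groups overlapped for neither receptor, with S1pr4 lower and S1pr5 higher in each D3TA library. These were 1 lower and 1 higher of 15 genes, against 6.84% and 8.18% of all tested genes, and nothing is read from them. S1pr2, a receptor that restrains migration, ranged from 101 to 1291 in D3TA and from 175 to 285 in WT. Mfsd2b, the S1P exporter of red cells and platelets, was at 2518, 1516 and 405 in D3TA-1, D3TA-2 and D3TA-3, against 437, 405 and 500 in WT-1, WT-2 and WT-3. Its 2 high values came from D3TA-1 and D3TA-2, and limma's adjusted p was 0.452. Without D3TA-3 Mfsd2b passed the limma threshold, at a log2 difference of 2.13. It passed in the 4 libraries at or near 0 for Y-linked genes, at 2.12, but these leave out D3TA-3 too and are no separate check. All 13 erythroid and all 8 megakaryocyte markers lay above 0 (medians 1.01 and 0.72, 0 called), against 54.5% of all tested genes. The mean log2(normalized count + 1) of the erythroid markers was also highest in D3TA-1 and D3TA-2, at 14.6 and 13.7. The part of these cells in the Mfsd2b values was not tested. Spns2, the endothelial S1P exporter, averaged 389 ± 138 in D3TA against 499 ± 41.5 in WT (n = 3 each, SD).

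Chemoattractant receptors beside Ccr7 and Cxcr4 split by direction, with 9 of 20 tested above 0 and 11 below, a median of -0.06 and 0 called by limma. The groups did not overlap for 3 lower genes (Cxcr5, Ccr9 and Gpr183) and 2 higher genes (Ccr1 and Ccr2, given below). Over all tested genes those shares were 6.84% and 8.18%, and nothing is read from these counts. Cxcr5, which directs B cells and follicular helper T cells to CXCL13, was at 330, 1115 and 1466 in D3TA-1, D3TA-2 and D3TA-3, against 2828, 2272 and 1485 in WT-1, WT-2 and WT-3. The D3TA values all lay below the WT values, though D3TA-3 nearly met WT-3 (log2 difference -1.38 ± 0.51 (SE), limma adjusted p = 0.419). Without D3TA-1 it was -0.73. Ccr9, the gut-homing receptor for CCL25, was at 28.9, 44.4 and 91.6 in D3TA against 118, 123 and 155 in WT in the same order, a difference of -1.40 ± 0.52 (SE; limma adjusted p = 0.419). Gpr183, the oxysterol receptor that positions B cells at the follicle edge, averaged 552 ± 275 in D3TA against 861 ± 117 in WT (n = 3 each, SD; limma adjusted p = 0.580), and its difference of -0.80 was -0.27 without D3TA-1.

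Of 13 tested ligand entries 10 lay below 0, against 45.5% of all tested genes, with a median of -0.44 and 0 called by limma. The groups did not overlap for 3 lower entries and 1 higher entry. Over all tested genes those shares were 6.84% and 8.18%. Because the list was chosen with earlier results known, nothing is read from these counts. Cxcl12, the CXCR4 ligand, was at 3145, 3475 and 5858 in D3TA-1, D3TA-2 and D3TA-3, against 6754, 8174 and 9377 in WT-1, WT-2 and WT-3, without overlap (log2 difference -1.01 ± 0.33 (SE), limma adjusted p = 0.362). Cxcl13, the CXCR5 ligand of follicular stroma, was at 695, 1882 and 2375 in D3TA against 4582, 10250 and 2393 in WT in the same order (log2 difference -1.73 ± 0.57 (SE), limma adjusted p = 0.368). D3TA-3 and WT-3 were almost level for Cxcl13, and with D3TA-1 and WT-2 both left out the difference was -0.65. Madcam1, which encodes the ligand of integrin alpha 4 beta 7, was at 166, 457 and 396 in D3TA-1, D3TA-2 and D3TA-3, against 845, 1074 and 309 in WT-1, WT-2 and WT-3, with WT-3 again among the D3TA libraries (limma adjusted p = 0.539). Ccl25, the CCR9 ligand, lay the other way and was the one gene of the list that was higher in each D3TA library, at 52.5, 102 and 45.8 in D3TA-1, D3TA-2 and D3TA-3, against 16.2, 21.3 and 42.5 in WT-1, WT-2 and WT-3 (log2 difference 1.32 ± 0.62 (SE), limma adjusted p = 0.527). Ccl19, a CCR7 ligand, was at 4.28 and 2.02 in D3TA-1 and D3TA-2, at 912 in D3TA-3 and at 7.73 to 24.8 in WT. The annotation gives the names Ccl19 and Ccl21a to more than 1 gene entry each, whose reads can be shared, so these values are uncertain. Ccl21a counts as 2 of the 13, both below 0.

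Genes of integrins, selectins and integrin activation were split in direction. Of 17 tested genes of this list 9 lay below 0 and 8 above, the median was -0.09 and limma called 0. Itga4, the alpha 4 partner of integrin beta 7, averaged 1403 ± 139 in D3TA against 1322 ± 463 in WT, and Itgae, the other partner, averaged 206 ± 115 and 114 ± 70.9 (n = 3 each, SD). Rassf5, which encodes the RAPL adaptor of chemokine-triggered adhesion, was at 1080, 1560 and 1671 in D3TA-1, D3TA-2 and D3TA-3, against 2765, 2117 and 1946 in WT-1, WT-2 and WT-3. Its groups did not overlap, at a difference of -0.67 ± 0.30 (SE; limma adjusted p = 0.495). The list held 2 lower and 1 higher genes without overlap of 17, against 6.84% and 8.18% of all tested genes, and nothing is read from them.

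**Figure D2:**
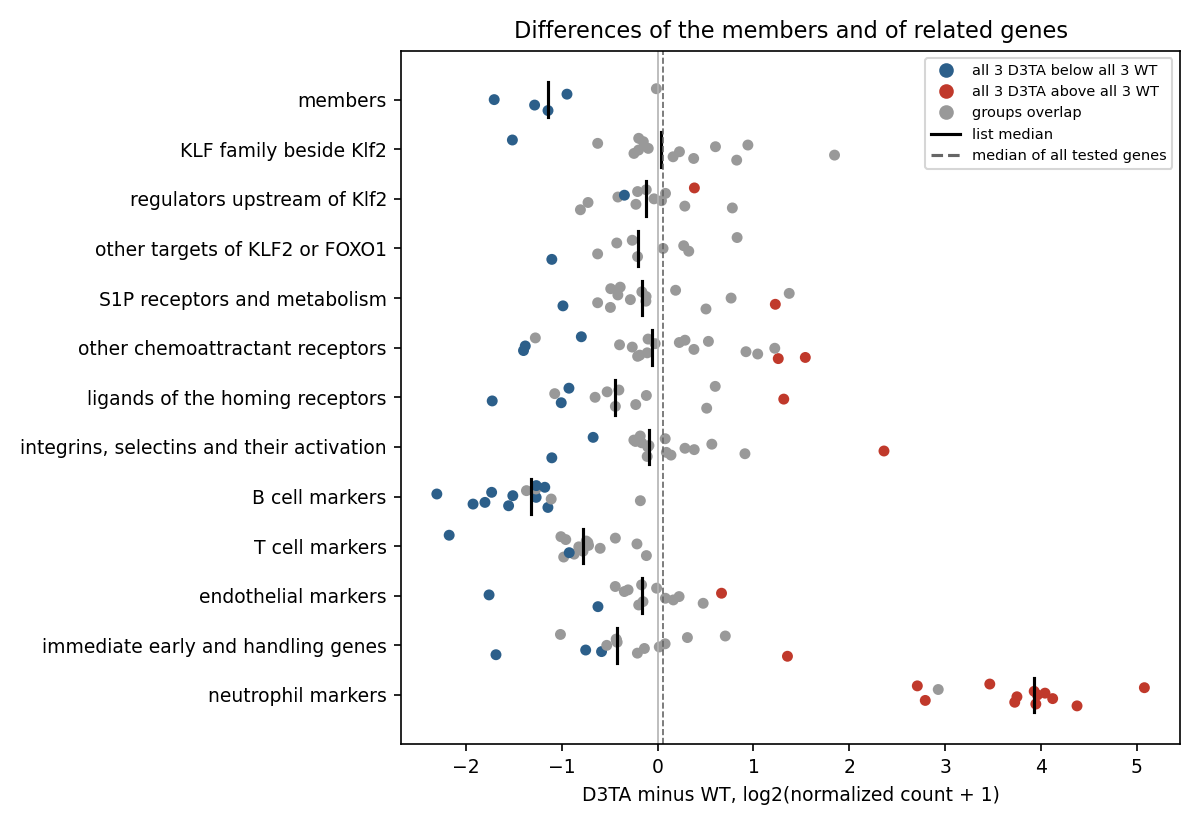
Difference between the D3TA and WT means of log2(normalized count + 1) for each tested gene, by gene list, with list medians as black ticks and the median of all tested genes (0.06) as a dashed line. The members and the B cell markers lie left of 0, the medians of the pathway lists lie between -0.44 (ligands) and 0.03 (KLF family), and the neutrophil markers lie far to the right.

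Lymphocyte markers lay lower in D3TA beside the members. All 14 tested B cell markers lay below 0, with a median of -1.32. All 16 T cell markers lay below 0 too, with a median of -0.78, against 45.5% of all tested genes below 0. Limma called 0 of either, and 12 B cell and 4 T cell markers had an unadjusted p under 0.05, against 9.91% of all tested genes. All 3 D3TA libraries lay below all 3 WT libraries for 10 B cell and 2 T cell markers, against 6.84% of all tested genes. The lists were chosen with earlier results known, so nothing is read from these counts. Without D3TA-1 the median was -0.79 for the B cell markers and -0.27 for the T cell markers, and with D3TA-1 and WT-2 both left out that of the T cell markers was -0.21. The summed level of the B cell markers was 15998 to 48448 in D3TA and 78316 to 99492 in WT, and that of the T cell markers 7144 to 22226 and 20048 to 28254. Cd79a, a chain of the B cell receptor complex, averaged 5685 ± 2557 in D3TA against 19901 ± 2939 in WT, and Lef1, a naive T cell factor, averaged 215 ± 47.5 and 1030 ± 428 (n = 3 each, SD). Lef1 had the largest difference of the 16 T cell markers, at -2.17 against the list median of -0.78. Lck, the T cell marker with the highest mean, averaged 2303 ± 1149 in D3TA against 3449 ± 552 in WT (n = 3 each, SD), with overlap. Without D3TA-3 Cd79a and Lef1 passed the limma threshold, at log2 differences of -2.11 for Cd79a and -2.27 for Lef1. Cd79a and Lef1 also passed with no filter on low values. In these bulk samples fewer lymphocytes and less of a transcript per lymphocyte cannot be told apart. All 13 neutrophil markers lay above 0, with a median of 3.93 and a summed level of 81555 to 446110.2 in D3TA and 12394 to 28952 in WT, and of these Mmp8 was at 0 in WT-2. Limma called 0 of the 13, and all 13 had an unadjusted p under 0.05. Over all tested genes 54.5% lay above 0 and 9.91% had an unadjusted p under 0.05, and nothing is read from these counts either.

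Endothelial genes were compared because endothelium also expresses Klf2, and immediate early genes because they respond to tissue handling. Of 14 tested endothelial markers 9 lay below 0, with a median of -0.16 and a summed level of 7658 to 10277 in D3TA and 8711 to 11461 in WT. Plvap averaged 2284 ± 602 in D3TA against 2880 ± 608 in WT, and Pecam1, which leukocytes and platelets also express, averaged 1282 ± 316 and 1944 ± 297 (n = 3 each, SD). The groups did not overlap for Pecam1 and Emcn, both lower in D3TA, nor for Stab2, a scavenger receptor of sinusoidal endothelium that was picked after its values were seen. These were 2 lower and 1 higher of 14 genes, against 6.84% and 8.18% of all tested genes, and nothing is read from them. Stab2 was higher in D3TA, at 909, 949 and 951 in D3TA-1, D3TA-2 and D3TA-3, against 601, 389 and 875 in WT-1, WT-2 and WT-3. Of 15 immediate early genes 10 lay below 0, with a median of -0.42 and a summed level of 10078 to 10749 in D3TA and 13938 to 15022 in WT. Fos was at 137, 126 and 121 in D3TA-1, D3TA-2 and D3TA-3, against 68.8, 54.8 and 31.9 in WT-1, WT-2 and WT-3, while Jund was at 2273, 1870 and 1879 and at 3262, 3541 and 3291 in the same order. Limma called 0 genes of either list, and the part of either in the Klf2 values was not tested.

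Set against the lymphocyte markers of the same library, Klf2 and Itgb7 did not separate the groups on either the B cell or the T cell scale. The share of all tested genes that separate the groups on these scales was not computed, so nothing is read from a lack of overlap. Klf2, as log2(normalized count + 1) minus the mean of the 14 B cell markers, was 1.18, 0.11 and -0.04 in D3TA-1, D3TA-2 and D3TA-3 and -0.29, 0.16 and 0.61 in WT-1, WT-2 and WT-3. These values overlapped, and relative to the 16 T cell markers Klf2 averaged 1.80 ± 0.76 in D3TA against 2.14 ± 0.53 in WT (n = 3 each, SD), also with overlap. S1pr1 averaged -0.64 ± 0.21 and -0.76 ± 0.14 relative to B cell markers, with overlap. Relative to T cell markers it was 0.85, 0.88 and 0.48 in D3TA-1, D3TA-2 and D3TA-3 and 1.07, 1.09 and 1.49 in WT-1, WT-2 and WT-3, without overlap.

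On the T cell scale Ccr7 separated the groups, and on the B cell scale Cxcr4 did. The scales themselves differed between the groups, since the marker means were lower in D3TA by 1.40 for B cells and 0.80 for T cells. Ccr7 relative to the 16 T cell markers was -0.40, 0.18 and 0.05 in D3TA-1, D3TA-2 and D3TA-3 and 0.61, 0.57 and 1.36 in WT-1, WT-2 and WT-3, so that every D3TA library was lower, by 0.90 on average. Relative to the 30 B and T cell markers together Ccr7 was 0.62 lower on average, again without overlap, and on that scale the groups overlapped for the other 4 members. Relative to B cell markers alone the Ccr7 values overlapped. Cxcr4 relative to B cell markers was 1.55, 0.17 and 0.20 in D3TA and -1.31, -0.61 and -0.32 in WT in the same order, higher in every D3TA library by 1.39 on average. Its own log2 difference was -0.01, so this shift is that of the B cell markers with the sign turned. Relative to T cell markers the Cxcr4 values overlapped. Myeloid and progenitor cells express Cxcr4 too, and their part in its level was not tested.

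**Figure D3:**
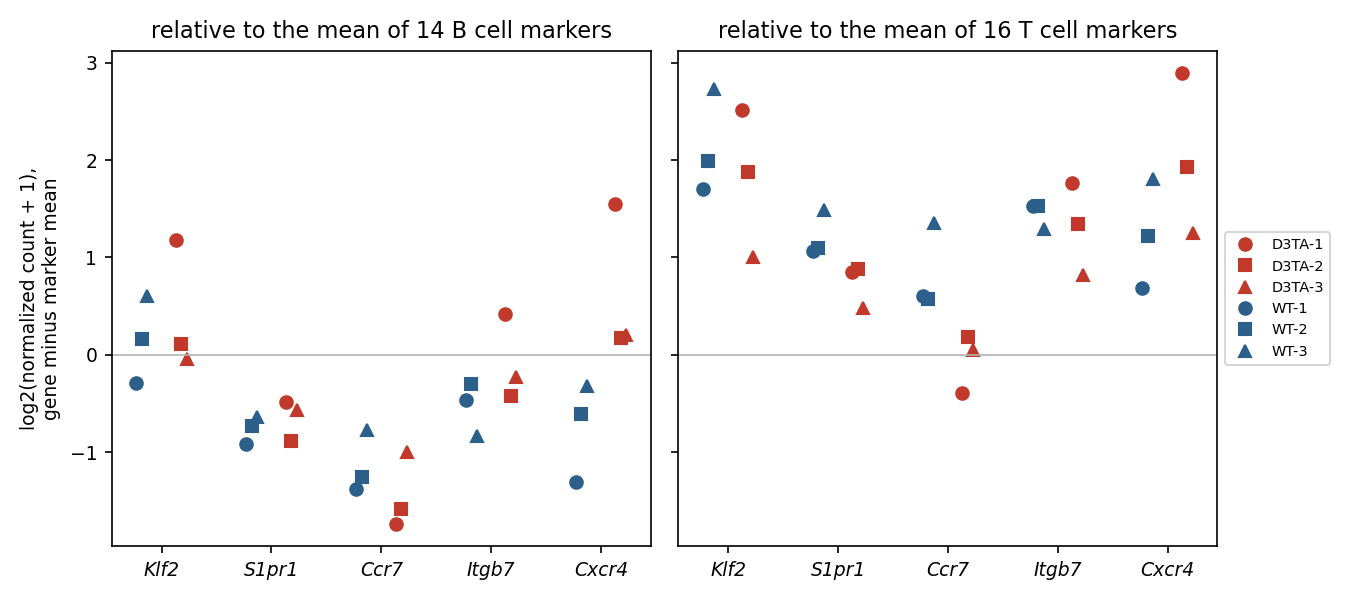
Each member as log2(normalized count + 1) minus the mean of 14 B cell markers (left) or 16 T cell markers (right) in the same library, with red D3TA and blue WT points. The groups overlap for Klf2 and Itgb7 in both panels, S1pr1 and Ccr7 are lower in D3TA relative to T cell markers, and Cxcr4 is higher in D3TA relative to B cell markers.

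The genes most like each member were found by Pearson's r of log2(normalized count + 1) over the 6 libraries among 10934 tested genes with a mean of at least 100. The points share library depth, cell makeup and the group difference, so r is a description. Ccr7 was closest to Snn (r = 0.9995), Ptprcap (r = 0.9971) and Gadd45b (r = 0.9965). Ptprcap, which encodes the CD45-associated protein of lymphocytes, was at 1417, 4672 and 5097 in D3TA-1, D3TA-2 and D3TA-3, against 8618, 9660 and 9851 in WT-1, WT-2 and WT-3. S1pr1 was closest to Tspyl3, Snx6 and Gm8221 (r = 0.99 each), and Klf2 to AI467606 (r = 0.99), Gm15682 (r = 0.99) and 4930523C07Rik (r = 0.98). Itgb7 was closest to Fcmr (r = 0.99), the Fc receptor for IgM on B cells, at 778, 2033 and 2249 in D3TA against 7990, 6588 and 2790 in WT in the same order, and then to Scaper and Zfp651 (r = 0.99 each). Cxcr4 had a different set, C1d (r = 0.99), Oas1c (r = 0.99) and Rab9 (r = 0.98). Among the members, S1pr1 and Ccr7 had the highest r at 0.98, Klf2 reached 0.87 with S1pr1 and 0.85 with Ccr7, and Cxcr4 lay between -0.03 and 0.30 with the other 4.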

How the data were processed

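RNA was measured in splenocytes of 3 D3TA and 3 WT mice. The deposited table holds a signal per gene and library, normalized counts on the evidence of its values: 100% of 149436 values were whole multiples, within 0.001 reads, of a step of 0.864 to 1.12 per library. Per the submitters' processing notes, CASAVA, FastQC, Trim Galore, HISAT2, DESeq2 and mm10 were used, without versions or roles. The counting program is not given in the sources used here. Intervals or limits from reads cover counting error only.

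GENCODE M21 (GRCm38) gave symbols for 24895 of 24906 gene identifiers. Genes with a value of at least 10 in at least 3 libraries (15564, including the 5 members) were fitted as log2(value + 1) with limma 3.58.1 (trend, robust, 2-sided, Benjamini-Hochberg 0.05). limma was tested on simulated data. Count models were not run. Results for 1 listed gene are not reported here, although the list counts include it. The members and all lists were chosen with earlier results of these data known. Named genes were the members, genes of the 7 pathway lists, marker and handling genes with the smallest p or the highest mean (2 each per list) and the 3 genes most like each member. Promoter sequence came from RefSeq (GRCm38.p6), where 3 of 5 members matched. Same-numbered libraries were not paired. R 4.3.3, Python 3.11.15 and matplotlib 3.10.9 were used.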

Additional observations from a re-analysis of the deposited data

How the results depend on the processing

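With each library left out in turn, the log2 difference was -1.30 to -1.03 for Klf2 and -1.50 to -0.87 for S1pr1. For Ccr7 it was -2.11 to -1.07 and for Itgb7 -1.25 to -0.70. The negative sign was fixed in advance there, because each D3TA library lay below each WT library. Over the other 12 settings run the 4 genes lay, in the same order, at -1.23 to -0.99, -1.47 to -0.81, -2.12 to -1.08 and -1.03 to -0.54. Scaling by median ratio, no filter, the replicate block and the term for Y-linked reads returned the main values unchanged. That outcome was fixed in advance. The median-ratio factor was 1 in each library, and the filter does not enter the log2 difference of a gene. The replicate and Y-linked terms were balanced over the groups. These settings are therefore no check of the differences. Cxcr4 lay between -0.18 and 0.13 and changed sign. Of 15564 genes limma called 0, against 44 with no filter, 15 with a term for Y-linked reads, 11 with a term for hemoglobin, 106 in the 4 libraries at or near 0 for Y-linked genes, and 0 to 278 with each library left out, the 278 without D3TA-3. At an unadjusted p under 0.05 the split was 946 higher and 596 lower, 1163 and 437 by library total, 792 and 727 by upper quartile, and 1193 and 377 without immunoglobulin, T cell receptor and hemoglobin genes. With the replicate number as a block limma called 0 genes, and same-numbered libraries did not deviate together (r = -0.06, -0.0046 and -0.13 over genes), so the numbers were not taken as pairs. TMM scaling, filterByExpr, limma-voom, edgeR and DESeq2 had been planned and were not run.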

Other observations

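Ccr2, Ccr1 and Itgam, genes of myeloid cells, lay on the other side of 0 from Ccr7 and Cxcr5. The lists of myeloid markers differed from each other. Of 11 tested monocyte and macrophage markers, 10 lay below 0 and 1 above, with a median of -0.19 and 0 called by limma. The 1 above was Ly6c2, which averaged 4537 ± 899 in D3TA against 1927 ± 478 in WT (n = 3 each, SD), without overlap. All 13 neutrophil markers lay above 0, with a median of 3.93 and 0 called. Ccr2, which brings inflammatory monocytes into tissue, was at 1617, 1114 and 905 in D3TA-1, D3TA-2 and D3TA-3, against 487, 236 and 572 in WT-1, WT-2 and WT-3, a log2 difference of 1.54 ± 0.39 (SE; limma adjusted p = 0.239). Ccr1, a receptor for inflammatory chemokines, was at 880, 697 and 475 in D3TA against 212, 361 and 275 in WT in the same order, a difference of 1.26 ± 0.35 (SE; limma adjusted p = 0.285). Itgam, the alpha chain of the myeloid integrin Mac-1, was at 2233, 1236 and 381 in D3TA against 239, 250 and 129 in WT, a difference of 2.36 ± 0.57 (SE; limma adjusted p = 0.232). Without D3TA-3 Itgam passed the limma threshold, at a difference of 3.07. It passed in the 4 libraries at or near 0 for Y-linked genes, at 3.21, but these leave out D3TA-3 too and are no separate check. The groups did not overlap for Ccr1, Ccr2 or Itgam, as in 8.18% of all tested genes, and all 3 lay higher in D3TA.

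Icam2, an adhesion ligand of endothelium and leukocytes, was at 395, 497 and 565 in D3TA-1, D3TA-2 and D3TA-3, against 799, 840 and 1135 in WT-1, WT-2 and WT-3, without overlap (log2 difference -0.92 ± 0.29 (SE), limma adjusted p = 0.356).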
